A study of Mus musculus with 3 samples.

Results

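Mitosis and kinetochore genes, 55 in all, were followed in diffuse-type gastric cancers of mice. They are the cyclins and kinases that bring a cell into mitosis and the motors and scaffolds of the spindle. They also include the proteins that join chromosomes to the spindle and those that separate the daughter cells. The genes were chosen by name, and the spots of each were found by the gene name in the scanner files, which gave 74 of 39429 gene probes. Of the 55 genes, 51 had a probe bright enough to be tested, among 19433 tested genes of 31896 on the array. The tumours came from Atp4b-Cre+;Cdh1loxP/loxP;Trp53loxP/loxP mice, 3 biological replicates with 1 tumour each, taken at 12 months of age. The pool they were set against held 5 normal gastric mucosae of Atp4b-Cre-;Cdh1loxP/loxP;Trp53loxP/loxP mice of 12 months, so tumours and mucosae shared both floxed alleles and differed in the Cre transgene. Atp4b encodes the beta subunit of the proton pump of the acid-secreting parietal cell, so its promoter drives Cre in that lineage. Each tumour was hybridised in red (Cy5) with the pool in green (Cy3) on its own 2-colour Agilent array, and dyes were not swapped. The pool is 1 control sample, so the p-values do not cover the spread among normal mice. Stroma had been removed mechanically from the mucosae in 30 mM EDTA, a step the labels do not give for the tumours.

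Mitotic genes are made in waves during the cell cycle, mostly in the G2 phase and in mitosis, and fall silent in resting cells. Their promoters are held down in resting cells by a repressor assembly called DREAM and are turned on in G2 by the transcription factors B-Myb and Foxm1. Both act through a short element called the CHR, often found beside CCAAT boxes that bind the factor NF-Y. In the stomach, dividing cells sit mainly in the isthmus of the gland, while parietal and chief cells, which make acid and digestive enzymes, seldom divide.

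The letters of these elements were counted first in the genes' own promoters, in RefSeq windows of 300 bases on GRCm38.p6, from 250 bases before the start of the gene to 50 bases after it. The table held 51 windows for 46 of the 55 genes, some genes having several starts. The genes without a window were Aurkb, Ccna2, Cdc25c, Foxm1, Incenp, Kif20a, Smc4, Spc24 and Tpx2. The windows of the 6 genes with the largest difference among those called higher in tumours that also hold TTTGAA or CCAAT show how these letters lie near the start. They are Cenpe at chr3:135212313-135212612 on the plus strand, Plk1 at chr7:122159185-122159484 on the plus strand, Aurka at chr2:172370521-172370820 on the minus strand, Prc1 at chr7:80294201-80294500 on the plus strand, Ccnb1 at chr13:100786437-100786736 on the minus strand, Ect2 at chr3:27153805-27154104 on the minus strand. The windows are written 5′ to 3′ along the gene, and capitals mark TTTGAA and TTTAAA, which are forms of the CHR, and CCAAT, on either strand.
Cenpe: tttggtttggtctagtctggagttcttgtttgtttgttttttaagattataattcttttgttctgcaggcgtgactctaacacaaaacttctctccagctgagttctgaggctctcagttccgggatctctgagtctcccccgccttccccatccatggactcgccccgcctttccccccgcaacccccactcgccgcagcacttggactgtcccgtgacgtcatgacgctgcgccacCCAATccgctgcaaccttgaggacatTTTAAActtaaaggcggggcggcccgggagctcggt
Plk1: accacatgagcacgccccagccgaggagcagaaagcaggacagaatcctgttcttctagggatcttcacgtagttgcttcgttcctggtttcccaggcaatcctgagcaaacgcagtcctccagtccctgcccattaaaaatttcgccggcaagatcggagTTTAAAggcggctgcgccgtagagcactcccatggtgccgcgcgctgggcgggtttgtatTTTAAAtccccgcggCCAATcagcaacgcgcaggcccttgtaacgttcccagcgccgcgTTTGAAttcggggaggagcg
Aurka: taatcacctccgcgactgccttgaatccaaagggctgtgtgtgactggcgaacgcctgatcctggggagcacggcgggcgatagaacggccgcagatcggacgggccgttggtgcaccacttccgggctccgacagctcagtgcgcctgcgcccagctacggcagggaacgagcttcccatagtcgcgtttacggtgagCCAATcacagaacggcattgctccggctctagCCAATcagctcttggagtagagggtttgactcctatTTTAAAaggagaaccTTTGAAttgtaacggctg
Prc1: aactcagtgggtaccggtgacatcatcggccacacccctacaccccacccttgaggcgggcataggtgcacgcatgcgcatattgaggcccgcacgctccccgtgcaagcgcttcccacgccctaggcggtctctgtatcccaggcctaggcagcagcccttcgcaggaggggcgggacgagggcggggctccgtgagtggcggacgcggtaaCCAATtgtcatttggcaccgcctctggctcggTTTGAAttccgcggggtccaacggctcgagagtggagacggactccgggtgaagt
Ccnb1: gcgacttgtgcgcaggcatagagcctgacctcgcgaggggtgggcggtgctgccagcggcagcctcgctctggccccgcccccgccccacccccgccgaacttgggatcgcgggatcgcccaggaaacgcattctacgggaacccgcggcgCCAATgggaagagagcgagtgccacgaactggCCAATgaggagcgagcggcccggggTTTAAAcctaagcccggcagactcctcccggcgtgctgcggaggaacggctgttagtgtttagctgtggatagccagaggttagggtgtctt
Ect2: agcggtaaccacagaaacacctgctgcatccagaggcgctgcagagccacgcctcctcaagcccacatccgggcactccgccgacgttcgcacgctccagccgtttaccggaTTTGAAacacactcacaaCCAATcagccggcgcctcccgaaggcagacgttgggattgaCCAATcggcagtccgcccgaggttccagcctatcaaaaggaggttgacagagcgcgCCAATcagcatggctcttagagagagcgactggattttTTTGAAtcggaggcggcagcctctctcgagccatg
TTTGAA was in the windows of Plk1, Aurka, Prc1 and Ect2. Those of Cenpe and Ccnb1 held TTTAAA and lacked the other form.

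Over the genes as a whole, TTTGAA read on both strands was in 36 of the 51 windows, or 70.6%. It was in 17.9% of all 32851 windows of the table and in 12.5% of the 14868 windows of genes tested here. CCAAT was in 74.5% of the genes' windows, in 37.4% of all windows and in 37.1% of those of tested genes. Both motifs stood together in 60.8% of the genes' windows, against 6.95% of all windows and 4.87% of those of tested genes. The matches lay near the start of the gene: the first base of TTTGAA was at a median of -16 and that of CCAAT at -71, counted from the start. TTTAAA was in 21.6% of the genes' windows, against 13.2% of all windows and 9.61% of those of tested genes. Letters typical of sites for E2F factors were rarer, with TTCCCGCC in 1.96% against 2.19% of all windows and TTGGCGCC in 7.84% against 0.816%. TTGGCGCC can share its TTGG with the complement of CCAAT. The bases G and C made up 58.5% of the genes' windows, 53.8% of all windows and 59.6% of the windows of tested genes. Among genes called higher in tumours, TTTGAA was in a window of 16 of 22, and among tested genes not called in one of 14 of 21. A match describes the letters of a window and does not show that a protein binds there.

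Tumours had more RNA of most mitosis genes than the pool of normal mucosa. Each value is the log2 of tumour over pool signal after correction of background and dye. A gene passed the test where its ratio differed from 0 at an adjusted p under 0.05 (limma, adjusted over all 19433 genes). A gene was called where the difference was also at least 2-fold. Of the 51 tested genes, 27 were called higher and 0 lower, against 9.33% called higher and 9.68% called lower of all genes tested. Without the 2-fold limit 43 passed higher and 1 passed lower, while 24.5% of all genes passed higher and 22.9% lower. With arrays centred on spike-in controls and no loess, 30 passed higher and 3 lower. In that spike-in fit the adjusted p of the genes named here followed the size of the ratio, whatever a gene's spread. It therefore does not measure how far the tumours differ for each gene. The median log2 ratio of the 51 genes was 1.05 and that of all genes 0.047. Without loess and with each array centred on its median over probes, the median of all genes was 0.76 and that of the 51 genes 1.95, and 39.8% of all genes were called higher and 2.87% lower. In bulk tissue a larger share of dividing cells and more of these RNAs in each cell cannot be told apart.

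The 51 log2 ratios ran from -0.63 to 1.67. Those of the called genes, whose lower end the 2-fold limit sets, ran from 1.03 with a median of 1.26, which put them between the 90.5th and the 96.0th percentile of all genes. In 16 of the 27 the ratio was at least 2-fold on each of the 3 arrays. In 44 of the 51 genes the lowest tumour signal was above the highest pool signal, as in 33.0% of all genes tested. The spread between tumours was like that of other genes, with a median SD of 0.17 on the log2 scale against 0.19 over all genes. All 27 called genes gave signals well above background in tumours and pool alike on every array, as did 13 of the 24 others tested. Of the remaining 11, 6 were above background in the pool on no array and 5 on only some, so they entered the test through the tumour channel. Over the 40 genes measured in both channels, the median was 1.18.

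**Figure D1:**
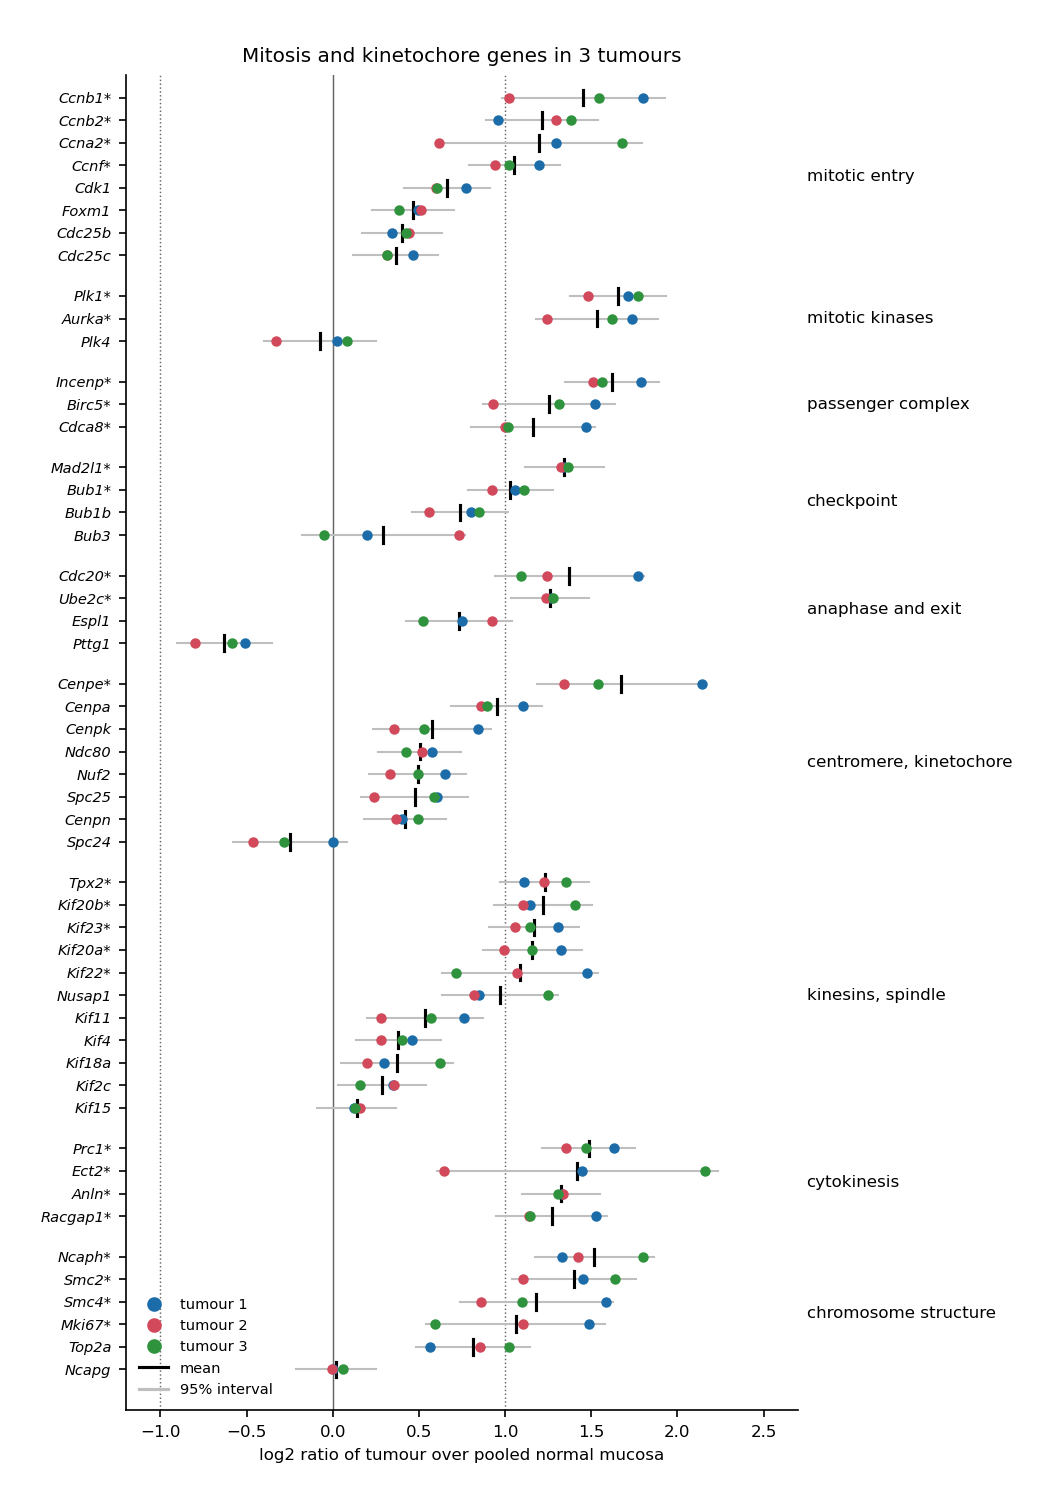
Log2 ratio of tumour over pooled normal mucosa for the 51 tested mitosis genes (x axis), grouped by role (y axis), with a point for each of 3 tumours, the mean as a black bar and the 95% interval of the fit as a grey line. Asterisks mark the 27 called genes, whose means lie between 1.03 and 1.67, and dotted lines mark a 2-fold difference either way.

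**Figure D2:**
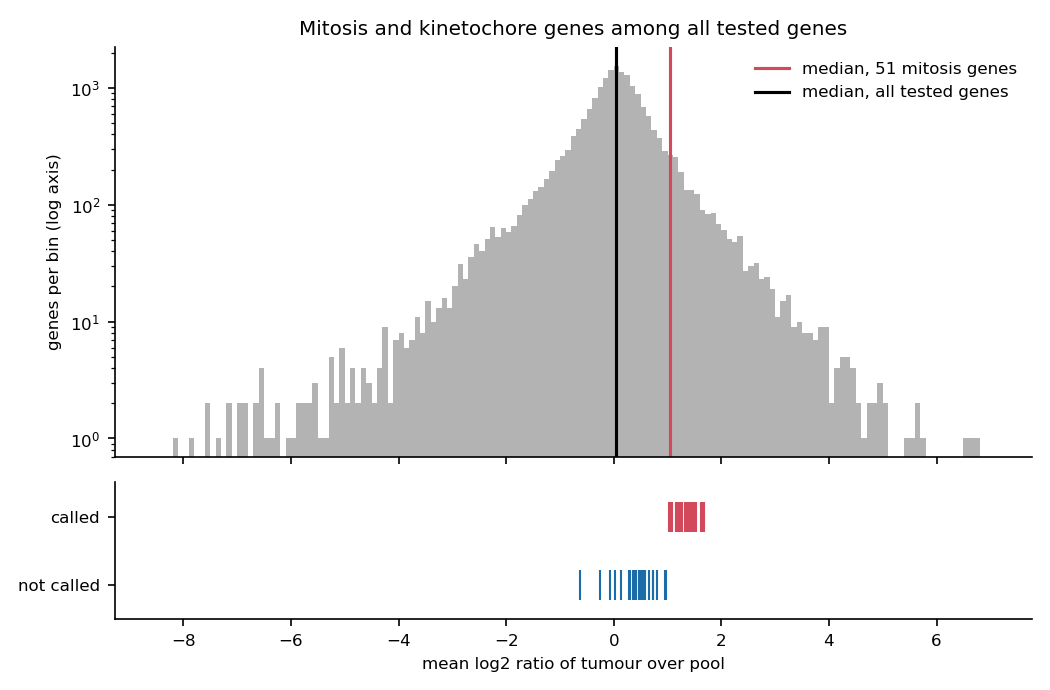
The upper panel counts all 19433 tested genes by mean log2 ratio of tumour over pool (x axis, log count on the y axis), with the median of the 51 mitosis genes at 1.05 and that of all genes at 0.047. In the lower panel each tick is 1 mitosis gene, and the called ones sit in the band from 1.03 to 1.67, inside the upper tail, whose end lies beyond 6.

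The switch into mitosis rests on Cdk1, the kinase that drives a cell through G2 into mitosis, and on the cyclins that activate it. All 8 genes of this group passed higher and 4 were called, with a median log2 ratio of 0.86. Without tumour 1 only 4 passed and 2 were called, without tumour 2 the number that passed was 5, and without tumour 3 it was 4. The group's medians in these fits were 0.79, 0.90 and 0.82. Each fit rests on 2 arrays, which weakens the test, so a lost pass does not single out the tumour left out. Ccnb1, which encodes the main mitotic cyclin B1, had signals of 1049, 593.1 and 933.5 in tumours 1, 2 and 3, against 300.7, 292.5 and 320.3 in the pool on the same arrays. Every tumour lay above every pool reading, and tumour 2 was the lowest of the tumours. Its log2 ratio was 1.46 ± 0.40 (SD, n = 3, adjusted p 0.0050 in limma). The other called cyclins were Ccnb2 at 1.21, Ccna2, the cyclin of S phase and G2, at 1.20, and Ccnf at 1.05. Ccnf, an F-box protein that marks other proteins for destruction, had log2 ratios of 1.19, 0.94 and 1.02 in tumours 1, 2 and 3. Its ratio was 0.98 without tumour 1, just under 2-fold. Ccna2 lost its call without tumour 1, where adjusted p was 0.053, and without tumour 3, where it was 0.060 and the ratio 0.96. Over 12 alternatives its adjusted p ran from 0.00013, in the spike-in fit that does not measure a gene's spread, to 0.060.

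Cdk1 itself differed by less. Its brightest probe read 309.5, 263 and 267 in tumours 1, 2 and 3, against 180.8, 173.4 and 175.2 in the pool. The groups did not overlap, and the log2 ratio of 0.66 ± 0.10 (SD, n = 3, adjusted p 0.0072) was under 2-fold. Foxm1, the transcription factor that switches on many G2 and mitosis genes, read 223.1, 241 and 318.3 in tumours, against 158.1, 169.2 and 243.8 in the pool. Here the pool reading on array 3 exceeded the tumour readings on arrays 1 and 2, but each tumour exceeded the pool on its own array. The log2 ratio was 0.46 ± 0.07 (SD, n = 3, adjusted p 0.016). A second kept Foxm1 probe, above background in the pool on no array, was at 0.11. It did not pass (adjusted p 0.31 in limma over all kept probes), and the median of the gene's probes was 0.29. The phosphatases that release Cdk1 from inhibition were at 0.40 for Cdc25b and, for Cdc25c, at 0.36, with -0.47 under spike-in centring without loess. Cdc25c was not above background in the pool on any array, and its fitted tumour level was 1.29-fold higher. With 1 tumour left out Foxm1 did not pass, at adjusted p of 0.066 without tumour 1, 0.083 without tumour 2 and 0.053 without tumour 3. Its log2 ratio in these fits of 2 arrays was 0.45, 0.44 and 0.50. In none of them did Cdc25b or Cdc25c pass.

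Plk1 and Aurka, kinases that mature the centrosomes and build the spindle, were among the largest differences. Plk1 had signals of 1738, 1399 and 1814 in tumours 1, 2 and 3, against 530, 500.6 and 530.3 in the pool. It was 3.15-fold higher in tumours, a log2 ratio of 1.66 ± 0.15 (SD, n = 3, adjusted p 0.0011). Aurka had 947.3, 731.6 and 922.6 in tumours, against 283.7, 309.6 and 299.7 in the pool. Its log2 ratio was 1.53 ± 0.26 (SD, n = 3, adjusted p 0.0022). For both, the tumour readings were more than double any pool reading. Plk4, the kinase that starts the copying of centrioles, did not pass: its log2 ratio was -0.07, with 0.65 from the scanner's processed signals, and it was above background in the pool on no array.

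The chromosomal passenger complex corrects wrong attachments of chromosomes to the spindle and later helps divide the cell. All 3 of its tested genes were called, and their median was 1.25. With each gene at the median of its probes only Incenp was called and the median was 0.79. Incenp, the scaffold of the complex, read 4388, 3690 and 3628 in tumours 1, 2 and 3, against 1270, 1297 and 1229 in the pool, a log2 ratio of 1.62 ± 0.15 (SD, n = 3, adjusted p 0.0012). Birc5, which encodes survivin, read 4191, 2909 and 3887 in tumours, against 1462, 1525 and 1566 in the pool. Its log2 ratio was 1.25 ± 0.30 (SD, n = 3, adjusted p 0.0043), with tumour 2 the lowest. Cdca8, which encodes borealin, had log2 ratios of 1.47, 1.00 and 1.02 in tumours 1, 2 and 3 and a mean of 1.16. Its second kept probe, at 0.36, did not pass (adjusted p 0.064 in limma over all kept probes). Aurkb, the kinase of the complex, could not be tested. Its 1 probe was well above background in neither channel on any array, with 66.36, 57.88 and 68.32 in tumours, against 75.3, 77.41 and 74.72 in the pool. Tumour and pool readings lay close together at the level of the offset and background.

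The spindle checkpoint delays the separation of chromosomes until each is attached. Mad2l1, which encodes its inhibitor Mad2, was called at 1.34 with an SD of 0.02 by its brightest probe. Its other kept probes, above background in the pool on no array, were at 0.36 and 0.40. The one at 0.36 did not pass (adjusted p 0.12 in limma over all kept probes). Bub1, a checkpoint kinase at the kinetochore, was the smallest of the called differences as fitted here with the offset of 50. It read 240.5, 210.8 and 263.7 in tumours 1, 2 and 3, against 115.7, 110.9 and 122.3 in the pool, a log2 ratio of 1.03 ± 0.09 (SD, n = 3, adjusted p 0.0024). Its probe was printed 10 times on each array, and these spots gave means of 1.06, 0.93 and 1.11 with SDs between spots of 0.11, 0.14 and 0.12 on arrays 1, 2 and 3. The 3 tumour means had an SD of 0.09. The ratio lies near the 2-fold limit in this fit and moved either way under others: it was 0.99 without tumour 3 and with loess centred on tested genes, and 0.82 under spike-in centring. It was 2.07 with the scanner's processed signals, 2.00 with the authors' values, 1.80 without an offset and 1.67 with median centring. Bub1b, which encodes the checkpoint protein BubR1, passed at 0.74, while Bub3, at 0.29 with an SD of 0.40, did not pass. Ttk, the kinase Mps1, was not tested, its probe being above background in no channel.

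At anaphase the ubiquitin ligase APC/C, working with Cdc20 and the enzyme Ube2c, destroys securin and cyclin B and so frees the protease separase. Cdc20 was called at 1.37 and Ube2c at 1.26, and Espl1, which encodes separase, passed at 0.73. Pttg1, which encodes securin, was the single gene of the 51 that passed lower, though its log2 ratio was 0.59 with median centring and no loess. It read 1600, 1422 and 1740 in tumours 1, 2 and 3, against 2276, 2476 and 2607 in the pool. Every tumour reading lay below every pool reading, and the log2 ratio was -0.63 ± 0.15 (SD, n = 3, adjusted p 0.011), short of 2-fold. Without tumour 2 its adjusted p was 0.053, and without tumour 3 it was 0.050. Over 12 alternatives the adjusted p of Pttg1 ran from 0.0090 to 0.55, the latter in the spike-in fit. A second Pttg1 probe, above background in no pool reading, had a log2 ratio of 0.03.

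**Figure D3:**
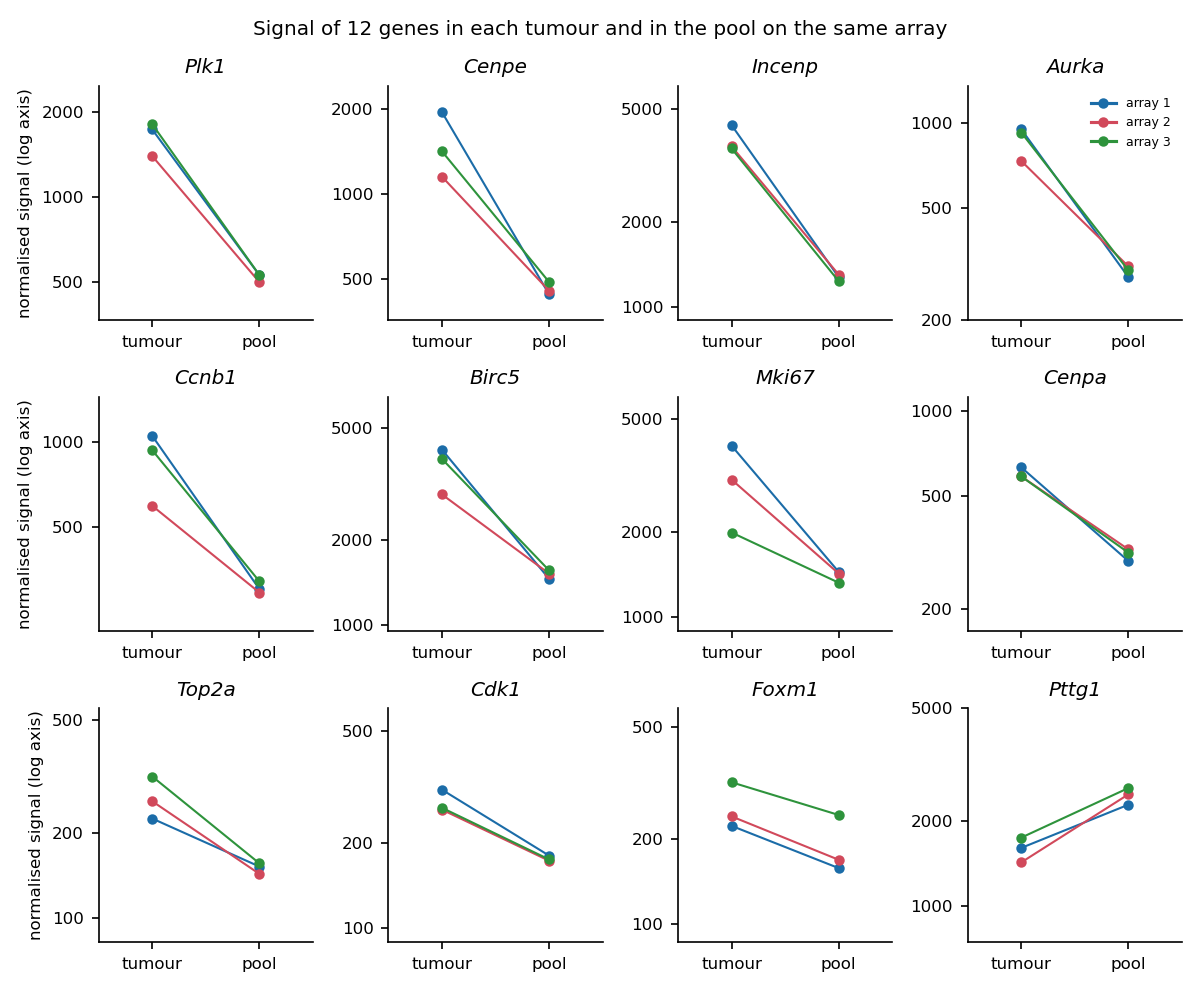
Normalised signal (log axis, with the offset of 50 included) of 12 mitosis genes in each tumour and in the pool on the same array, a line for each of 3 arrays. Lines of Plk1, Cenpe, Incenp and Aurka slope most steeply, those of Cdk1 and Foxm1 are shallower, and those of Pttg1 run the other way, a direction that turns with median centring.

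The centromere and kinetochore genes had the smallest median of the role groups, 0.50, but with the scanner's processed signals it was 1.35, above the 1.31 of the entry group. Of 8 tested genes 7 passed higher and only Cenpe was called, while processed signals gave 5 called. The number that passed fell to 2 without tumour 1, where Cenpa and Cenpe remained, to 4 without tumour 2 and to 3 without tumour 3. The group's medians in these fits of 2 arrays were 0.44, 0.58 and 0.52. Cenpe, the motor that carries chromosomes to the middle of the spindle, had the largest log2 ratio of the 51 genes as fitted here. It read 1948, 1151 and 1415 in tumours 1, 2 and 3, against 440.8, 454 and 487.5 in the pool, which gave 1.67 ± 0.42 (SD, n = 3, adjusted p 0.0039). The tumours differed among themselves, with tumour 1 the highest, and all lay above the pool. Cenpa, the histone variant that marks the centromere, read 632.2, 587.1 and 587.1 in tumours, against 294.5, 323.9 and 315.3 in the pool. Its log2 ratio of 0.95 ± 0.13 (SD, n = 3, adjusted p 0.0034) was just under 2-fold. Of the 4 genes of the Ndc80 complex, which grips the ends of microtubules, Ndc80 passed at 0.51, Nuf2 at 0.49 and Spc25 at 0.48. Spc24, the fourth, was at -0.25 and did not pass. Cenpk passed at 0.58. Cenpn, above background in the pool on no array, was 1.34-fold higher in the fit, with a log2 ratio of -0.31 under spike-in centring without loess. Cenpf was not tested, since its probe was above background on all 3 arrays in neither channel.

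Kinesins are motors that move along microtubules, and together with Tpx2 and Nusap1, which bundle or seed spindle fibres, they made up 11 tested genes. Of these, 8 passed higher, 5 were called and the median was 0.97. Tpx2, an activator of Aurka, was called at 1.23, Kif20b at 1.22 and Kif23, a motor of the central spindle, at 1.17. Kif20a, which carries the passenger complex to the central spindle, had log2 ratios of 1.33, 0.99 and 1.16 in tumours 1, 2 and 3, with adjusted p 0.0026 for its mean of 1.16. Kif22, a motor that pushes chromosome arms, had 1.47, 1.07 and 0.72, with adjusted p 0.0094 for its mean of 1.09. The Kif22 ratio was 0.89 without tumour 1. Nusap1 passed at 0.97 and Kif11, which keeps the spindle poles apart, at 0.54. Kif4 passed at 0.38, with -0.10 under spike-in centring without loess. Kif11 did not pass without tumour 1 or 3, and Kif4 did not pass with any 1 tumour left out. The genes that did not pass in the fit of all 3 tumours were Kif18a at 0.37, Kif2c at 0.29 and Kif15 at 0.14. Kif2c and Kif15 were above background in the pool on no array, Kif18a was above it there on 1 array, and Kif14 was not tested.

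The genes of cytokinesis, the final division of the cell body, were called in all 4 cases, with a median of 1.37. Prc1, which bundles the microtubules of the central spindle, read 1905, 1623 and 1615 in tumours 1, 2 and 3, against 614, 635.6 and 584.2 in the pool. Its log2 ratio was 1.48 ± 0.14 (SD, n = 3, adjusted p 0.0013), with the tumours close together and far above the pool. Anln, which links the contractile ring to the membrane, was at 1.32 with an SD of 0.02, and Racgap1 was at 1.27. Ect2, which activates the enzyme RhoA at the cleavage furrow, had the widest spread of the 51 genes, 1.42 with an SD of 0.76. It was not called without tumour 1, where adjusted p was 0.067, or without tumour 3, where it was 0.064. Over 12 alternatives the adjusted p of Ect2 ran from 1.89e-05, in the spike-in fit that does not measure a gene's spread, to 0.067.

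Among genes of chromosome structure, 5 of 6 passed higher and 4 were called, with a median of 1.12, while without tumour 1 only 2 were called. Ncaph, a subunit of condensin I, which compacts chromosomes, read 1023, 1040 and 1231 in tumours 1, 2 and 3, against 406.7, 388.5 and 353.2 in the pool. Its log2 ratio was 1.52 ± 0.25 (SD, n = 3, adjusted p 0.0021), and all tumours lay above the pool. The condensin core subunits Smc2 and Smc4 were called at 1.40 and 1.18, the Smc4 ratio being 0.98 without tumour 1. Ncapg, another subunit of condensin I, had 0.02, was above background in the pool on no array and did not pass. Mki67, whose protein Ki-67 is the common stain for dividing cells, read 4031, 3057 and 1986 in tumours 1, 2 and 3, against 1440, 1421 and 1319 in the pool. All tumours exceeded the pool, by very different amounts, and the log2 ratio was 1.06 ± 0.45 (SD, n = 3, adjusted p 0.014). It was 0.85 without tumour 1, and adjusted p was 0.061 without tumour 2, the highest of 12 alternatives. The lowest was 7.89e-05, in the spike-in fit that does not measure a gene's spread. Top2a, the topoisomerase that untangles sister chromosomes, read 224.1, 258 and 315.7 in tumours, against 151.5, 142.7 and 155.5 in the pool. The order of the tumours for Top2a was the opposite of that for Mki67, and the log2 ratio was 0.81 ± 0.23 (SD, n = 3, adjusted p 0.0087).

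The background correction adds 50 to each signal, which draws the ratios of dim genes towards 0. With an offset of 0 and no other change, 35 of the 51 genes were called higher, the median was 1.27 and Cdc25c was at 1.18. In that fit 16.4% of all genes were called higher. The scanner's processed signals carry no such offset and also differ in background correction and dye normalisation. With them 42 genes were called higher and the median was 1.40. Among the dim genes the log2 ratio was then 2.26 for Cdc25c, 2.22 for Cenpn and 1.73 for Nuf2, but 0.95 for Kif15 and 0.65 for Plk4. In the pool these genes were above background on no array, or on 1 for Nuf2. They lacked a full set of values in the authors' table. With the authors' values 33 of 40 genes were called higher, beside 12.1% of all genes. Under that setting 19.2% of all genes were called higher. Top2a and Cdk1 came to 1.16 and 1.01, and Foxm1 to 0.74. Pttg1 was at -0.66.

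**Figure D4:**
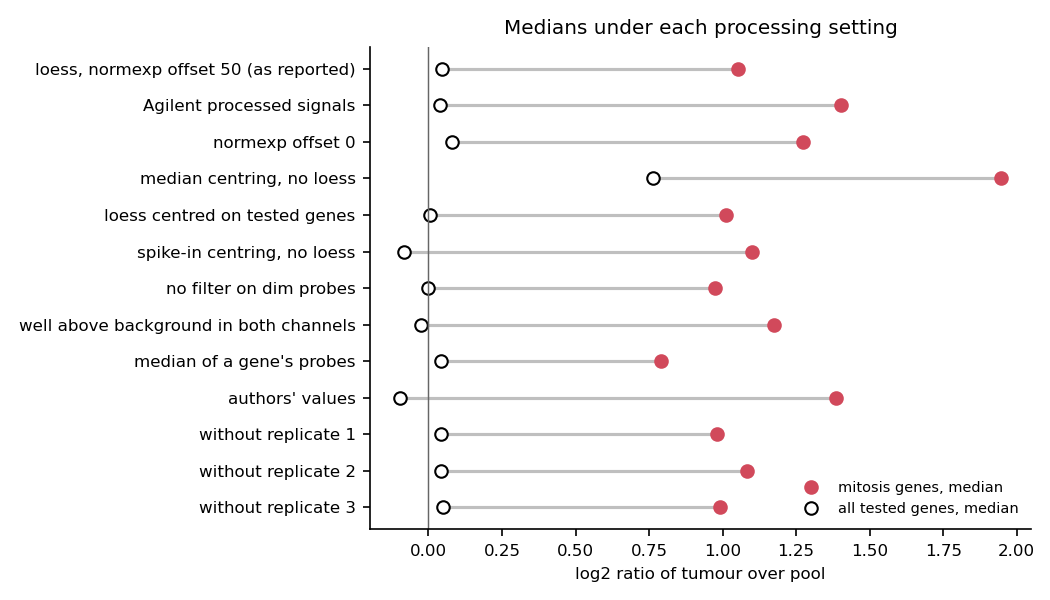
Median log2 ratio of tumour over pool (x axis) of the mitosis genes and of all tested genes under each processing setting (y axis). The mitosis genes lie to the right of all genes in each of the 13 settings, at medians from 0.79 to 1.95.

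Probes of 1 gene did not always give the same value. Of the 15 genes with several probes, 13 had several that were bright enough, 29 kept probes in all. Over all 51 tested genes, 54 of 67 kept probes passed higher and 2 passed lower. In the fit by gene, 24.5% of all genes passed higher and 22.9% lower. Tpx2 was the only gene whose kept probes passed in opposite directions. Its brightest probe, at chr2:152719476-152719535 (mm9), read 383.1, 402.6 and 482.7 in tumours 1, 2 and 3, against 177.5, 171.9 and 189 in the pool, a log2 ratio of 1.23. The probe nearer the 3′ end, at chr2:152720285-152720344, read 94.3, 86.74 and 85.67 in tumours, against 110, 106.1 and 112.3 in the pool, a log2 ratio of -0.30 with adjusted p 0.049 over all kept probes. The readings of the second probe lay close to the background, and tumours lay below the pool on every array. Taking the median of a gene's probes in place of the brightest left 22 genes called, beside 8.49% of all genes called higher, and a median of 0.79. The call was then lost for Ccnb1 at 0.73, Birc5 at 0.79, Cdca8 at 0.76, Mad2l1 at 0.49 and Tpx2 at 0.46.

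Overlapping probes differed in whether they gave a signal. The brightest Cdk1 probe (chr10:68801072-68801131, mm9, minus strand) shares 41 of its bases with a probe that starts 19 bases further along the transcript (chr10:68801053-68801112). The first gave a log2 ratio of 0.66. The second was above background in no tumour and in the pool on 1 array, with readings of 61.6 to 89.5 that include the offset of 50, so its ratio was not compared. Both probes hold 18.3% G and C. The remaining Cdk1 probe, in another part of the transcript, was above background in tumours only and gave -0.01. The stretches that are in just 1 of the overlapping Cdk1 probes, and those of the overlapping Incenp probes, are shown because 1 probe of the Cdk1 pair stayed near background while both Incenp probes were bright.
Cdk1, first probe: ttcttaatttcctacgtat
Cdk1, second probe: tataattctgtatatgtgc
Incenp, first probe: aggttgagcactgat
Incenp, second probe: agttgaatgactttt
The Incenp probes share 45 bases, at chr19:9946893-9946952 and chr19:9946878-9946937 (mm9, minus strand), and gave 1.62 and 1.58. Their signals differed in level, with 4388 and 2681 in tumour 1, while their ratios differed by less than the SD between arrays. Both Mki67 probes were called, at 1.06 and 1.21, as were both Ube2c probes, at 1.26 and 1.34.

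**Figure D5:**
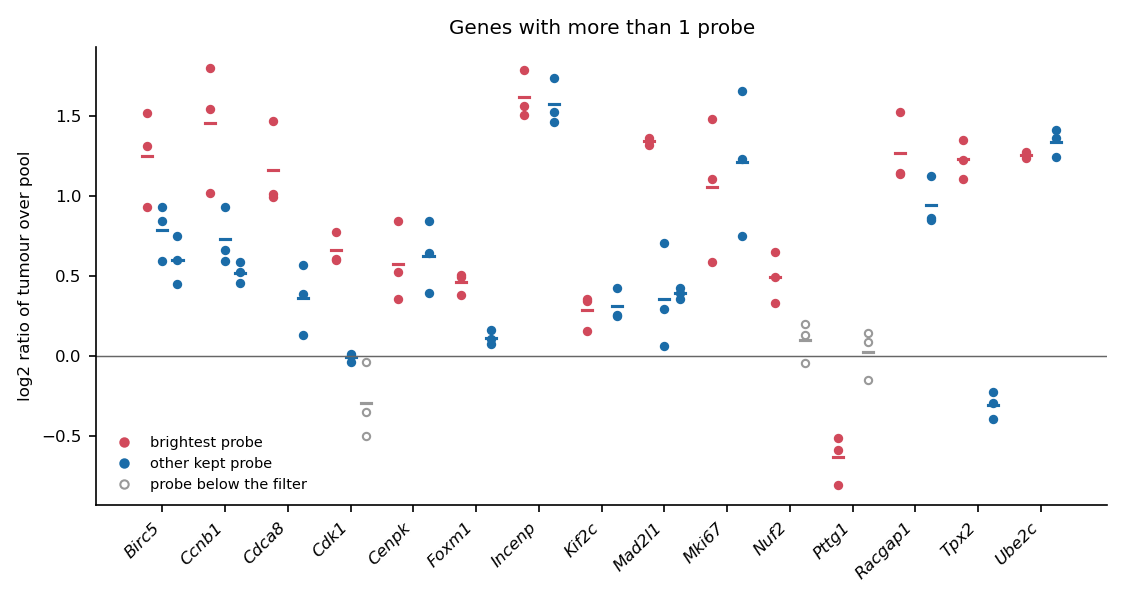
Log2 ratio of tumour over pool (y axis) on each of 3 arrays for every probe of the 15 mitosis genes with more than 1 probe (x axis), with the mean as a bar. The brightest probe is in red, other kept probes in blue and probes below the filter are open; for Birc5, Ccnb1 and Mad2l1 the mean of the brightest lies above those of the others.

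The tumours differed in how far these genes stood above the pool. The median over the 51 genes was 1.10 in tumour 1, 0.86 in tumour 2 and 1.02 in tumour 3, where all genes had medians of 0.041, 0.037 and 0.044. Tumour 2 gave the lowest of the 3 ratios for 36 of the 51 genes, or 70.6%, and it gave the lowest for 33.0% of all genes. Tumour 1 gave the highest for 26 genes, or 51.0%, and the highest for 36.5% of all genes. With 1 array for each tumour, tumours were not tested against each other. Other measures differed between the tumours too. Cdh1, which encodes the adhesion protein E-cadherin and is floxed in this model, read 217.9, 569.5 and 188.1 in tumours 1, 2 and 3, against 5352, 5489 and 5357 in the pool. Its log2 ratio was -4.24 (adjusted p 0.0019), and tumour 2 had the highest Cdh1 signal of the tumours. Lymphocyte markers had medians of 1.05, 1.96 and 1.03 in tumours 1, 2 and 3, and fibroblast markers 3.26, 2.95 and 1.64. Neutrophil markers had 4.83, 2.93 and 2.84, endothelial markers 1.25, 0.95 and 0.52, and macrophage markers 2.23, 2.52 and 2.42. Germinal centre markers had 0.37, 0.55 and 0.42, and the 3 tested erythroid markers 3.16, -0.36 and 0.66. Their part in the order of the tumours was not tested. Trp53, the other floxed gene, had a log2 ratio of -0.21 that did not pass (adjusted p 0.16). Under spike-in centring without loess adjusted p was 0.0079, the lowest of 12 alternatives, but there it does not measure the gene's spread. The highest adjusted p of Trp53 was 0.43. Whether its probe lies in the deleted part of the gene is not given in the sources used here.

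Further genes of the division cycle were read against the 9.33% of all genes called higher and the 9.68% called lower. Of 64 other tested mitosis genes, 42 passed higher, 4 passed lower and 18 did not pass. The number called was 9 higher, or 14.1%, and 1 lower, and the median was 0.52. With a tumour left out, in fits of 2 arrays, 20 to 27 of them passed higher and 7 to 12 were called higher. The share of all genes called higher in those fits was 8.55 to 8.68%. With processed signals 37 of 64 were called higher, beside 19.2% of all genes. With the authors' values 19 of 42 were called higher, beside 12.1% of all genes. The largest were Cdca5, which encodes the cohesin guard sororin, at 1.74, the Cdk partner Cks1b at 1.70 and the cohesin protector Sgo1 at 1.60. Wee1, the kinase that holds Cdk1 inactive, was the 1 called lower, at -1.59, while with median centring 0 of these genes were called lower. Of 43 genes of DNA replication, 30 passed higher and 1 lower, 17 were called higher, or 39.5%, and 0 lower, with a median of 0.85. The origin protein Orc6 was at 1.95 (adjusted p 0.050 without tumour 3, where it was not called), and the helicase subunits Mcm4 and Mcm5 were at 1.90 and 1.68. The E2F, pocket protein and DREAM genes that control this programme had 7 of 18 passing higher and 2 lower, 9 not passing and 2 called each way, or 11.1% higher. Their median was 0.12, and it was -0.0065 when the median of a gene's probes was taken. E2f1, an activator of S-phase genes, was at 1.18. Cdkn1a, which encodes the p53-induced Cdk inhibitor p21, was at -2.11 with an SD of 0.98, and Tfdp2, a partner of E2F factors, at -1.74. Both lost their call with median centring, where Cdkn1a was at -0.91 (adjusted p 0.097) and Tfdp2 at -0.81, and Cdkn1a was at -0.99 with the median of its probes. Over 12 alternatives the adjusted p of Cdkn1a ran from 8.6e-07, in the spike-in fit that does not measure a gene's spread, to 0.097.

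Markers of cell types differed strongly between tumours and pool, in the same comparison as the mitosis genes. Of 13 tested markers of differentiated gastric cells, 12 were called lower and 0 higher, with a median log2 ratio of -5.26. Their summed signals ran from 119200 to 133800 over tumours, against 2421000 to 2947000 over pool readings. The proton pump gene Atp4b was among them at -6.83, and the most reduced were Chia1 at -8.16, Cblif at -7.89 and Kcne2 at -7.51. General epithelial markers went both ways, with 5 of 10 called higher and 2 lower, where 3 were called higher without tumour 3 and 0 lower without tumour 1 or 3. Cldn7 was at 3.94, Krt7 at 3.93 and Cldn3 at 1.79 (adjusted p 0.061 without tumour 2 and 0.10 without tumour 3), and the summed signals were 142100 to 247900 in tumours and 236100 to 311700 in the pool. Krt8 at -1.56 and Krt19 at -1.27 were called lower, Elf3 passed lower at -0.49, and Krt18 at -0.13 did not pass. The 1 gastric cell marker not called, Gkn3, was at 0.20. Tumour samples thus held some epithelial markers above the pool level and others below it, and most tested markers of differentiated gastric cells were lower.

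Markers of non-epithelial cells, some of which can divide, were mostly higher in tumours for fibroblasts, macrophages, neutrophils and lymphocytes, and mixed for the other lists. For fibroblasts 8 of 9 were called higher, among them Lum at 3.62, Fbln2 at 3.33 and Col1a1 at 3.20 (adjusted p 0.053 without tumour 2), with sums of 51750 to 164800 in tumours and 16780 to 18390 in the pool. For macrophages 6 of 8 were called higher, with Cd14 at 3.72, Trem2 at 3.11 and Fcer1g at 3.04, and sums of 21550 to 22510 in tumours and 4519 to 5756 in the pool. Neutrophil markers were called in 6 of 8 cases, S100a9 at 6.70, S100a8 at 6.55 and Ltf at 4.68, with sums of 47950 to 221100 in tumours and 12330 to 13130 in the pool. Lymphocyte markers were called in 6 of 9 cases, with sums of 3468 to 9566 in tumours and 1300 to 1503 in the pool. The B cell gene Cd79b was at 3.55 and the T cell kinase Lck at 1.90. The 2 that did not pass were the B cell gene Cd79a at 0.40 and the T cell gene Cd3e at 0.10. Ms4a1, another B cell gene, was above background in the pool on no array, and its fitted tumour level was 6.88-fold higher. Endothelial markers went both ways: 3 of 7 were called higher, Vwf at 2.79, Cldn5 at 2.49 and Cdh5 at 1.66 (adjusted p 0.054 without tumour 2), while Kdr passed lower at -0.76. Emcn passed at 0.91, while Pecam1 at 0.22 and Tek at 0.25 did not pass, and the list's sums were 4065 to 7562 in tumours and 3392 to 3530 in the pool. In the pool, markers such as Cd68, Camp, Ngp, Ms4a1, Cd3g and Tek were well above background on no array. Of the germinal centre list, whose B cells divide fast, 4 of 6 genes were tested. Bcl6 was called higher at 1.18 and Rgs13 lower at -1.47, but with median centring Rgs13 was at -0.96 and not called. The list's sums were 1610 to 2542 in tumours and 1212 to 1226 in the pool. No erythroid marker of 3 tested passed, the brightest, Hba-a1, being at 0.79 with an SD of 2.15, and sums were 2766 to 55320 in tumours and 5414 to 6341 in the pool. The part of these cells in the mitosis genes' difference was not tested. Stroma had been removed from the mucosae of the pool, a step the labels do not give for the tumours. The part of that step in the marker differences was also not tested.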

How the data were processed

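Per the labels, 250 ng of total RNA (integrity number above 7) was used for each of 3 tumours and for the pool, on 3 two-colour arrays of 1 slide. Per the file headers, spot intensity was deposited as mean signal and median background, made with Feature Extraction 10.7.3.1 (9.5.3 per the submitters' processing notes), with probes placed on mm9. Deposited scanner ratios are log10 of red over green. The authors' table gives them as log2, equal within 0.01 at 99.8% of filled probes, and is blank for 48.3 to 49.6%.

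Intensities went through normexp (offset 50) and loess within arrays in limma 3.58.1 (R 4.3.3). Control spots and 157 to 190 flagged spots an array were dropped and repeat spots averaged. A probe was kept (24175 of 39429) if it was well above background on 3 arrays in either channel, and the brightest stood for a gene. lmFit and eBayes tested ratios against 0 (two-sided, Benjamini-Hochberg over 19433 genes). Signals per channel, after loess and Aquantile, keep the offset. Of gene spots, 52.5 to 54.2% were well above background in the pool and 64.0 to 66.8% in tumours, and the number of arrays limits the precision. Folds of genes dim in the pool are those of the fit, with no lower limit set on them. The fit was tested on simulated data. RefSeq accessions named 26055 probes.

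Genes and lists were chosen with earlier results of these data known. Values on every array are given for 10 well-known mitosis genes, for the 6 largest and 6 smallest called, and for genes whose kept probes disagree. Pttg1, Ect2, Ccna2, Smc4, Mad2l1, Anln, Kdr, Emcn, Pecam1, Tek and the dim genes were singled out after their values were seen. So were Wee1, Krt8, Krt18, Krt19, Elf3, Gkn3, Cd79a and Cd3e. A gene of the marker lists is not reported here. Alternatives changed the background correction, centring, filter, probe rule and replicates.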

Additional observations from a re-analysis of the deposited data

How the results depend on the processing

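Of the 27 mitosis genes called higher, none reversed under any alternative tried, and the number called ran from 22 to 42, the highest with the scanner's processed signals. The share of all genes called higher ran from 5.34% with no filter on dim probes to 39.8% with median centring. The median of the mitosis genes was 1.40 with processed signals, 1.27 with no offset, 1.95 with median centring, 0.79 with each gene at the median of its probes and 1.38 with the authors' values. Its difference from the median of all genes was 1.36, 1.20, 1.18, 0.75 and 1.48 in that order, 1.18 with spike-in centring and 1.20 for genes above background in both channels. Leaving out replicates gave 22 to 27 called, 31 to 35 passing higher and 0 to 1 passing lower. Each of these fits rested on 2 arrays, which weakens the test, and 8.55 to 8.68% of all genes were called higher. With median centring 0 passed lower. With spike-in centring 3 passed lower (Kif15, Ncapg and Plk4) and 1 was called lower (Plk4), in a fit whose adjusted p does not measure a gene's spread. Signs turned as follows. With spike-in centring Cdc25c was at -0.47, Cenpn -0.31, Kif2c -0.51, Kif4 -0.10, Kif15 -0.98, Kif18a -0.21 and Ncapg -0.96. With median centring Pttg1 was at 0.59, Spc24 0.46, Kif15 -0.13 and Ncapg -0.11. Ncapg was at -0.022 with loess centred on tested genes and ran from -0.00035 to 0.030 with a replicate left out. Plk4 was at 0.65 with processed signals and ran from -0.15 to 0.052 with a replicate left out, and Hba-a1 from -0.39 to 1.70. The median of the E2F and DREAM genes was -0.0065 with each gene at the median of its probes. The cause was not tested for any of these. Each ratio pairs a tumour with the same pool on its own array, and no further pairing was possible because the 3 tumours form 1 group. Since dyes were not swapped, a dye bias of a single gene and a tumour difference cannot be told apart. Genes near background are limited by signal, and 4 genes fell below the filter.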
